A study of Homo sapiens with 24 samples.

Results

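The tumor necrosis factor (TNF) superfamily of cytokines, its receptors and the TRAF adaptors that carry their signal into the cell were placed on the super-enhancer map of OCI-Ly7, an established human cell line from a diffuse large B-cell lymphoma of germinal center B-cell origin. Genes were taken by symbol from the protein-coding genes of GENCODE version 44 on chromosomes 1 to 22 of hg38. They were those beginning with TNFRSF (receptors), those beginning with TNFSF (ligands) and TRAF1 to TRAF7. This gave 40 of 19111 genes, made up of 21 receptors, 12 ligands and 7 adaptors. Each gene was linked to every super-enhancer that overlapped its body extended by 50 kb on both sides. The rule used gene names only and no measured value, but it was set with earlier results of these data known.

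The study profiled H3K27ac, H3K4me1 and H3K4me3 by CUT&RUN, a method that sequences the DNA cut free by a nuclease tethered to an antibody against each mark. Its 24 samples formed 12 groups of 2, from the 3 marks and 4 genotypes: wild-type (WT), CREBBP R1446C (C, labelled C_hom_KI), KMT2D knockout (K, labelled K_hom_KO) and both lesions together (CK, labelled CK_hom_KI_KO). All 4 are isogenic OCI-Ly7 clones grown from single cells, with CRISPR/Cas9 edits in C, K and CK and none in the WT controls, so a genotype stands for clones of 1 lymphoma line and not for germinal center B cells in general. The values used here come from 1 column that combines both H3K27ac WT libraries, so replicate error is unknown for every value, no difference was tested, and H3K27ac near these genes in C, K and CK was not analysed here.

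TNF family ligands are trimeric cytokines on the cell surface or in soluble form, and each engages 1 or a few receptors that cluster on binding. Apart from decoys, most receptors without a death domain recruit TRAF proteins, which pass the signal to the canonical and alternative NF-kappaB pathways and to stress kinases. Receptors with a death domain can also start apoptosis. In B cells this family holds the survival receptors for BAFF and APRIL, the CD40 and CD27 receptors that read T-cell help, and the CD70 ligand. H3K27ac is found at active regulatory elements. Super-enhancers are groups of neighbouring enhancer peaks, joined into 1 region, whose summed signal is unusually high. The signal is the summed H3K27ac value of a region as given by the ROSE program, on a scale that is relative within the table, and rank 1 is the highest signal of the 2615 super-enhancers.

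A super-enhancer lay within 50 kb of 13 of the 40 genes, or 32.5% (exact Clopper-Pearson 95% interval 18.6 to 49.1). The same was true of 31.8% of all protein-coding genes, and of 31.6% of genes in the same classes of gene length, which would give 12.6 of 40. The share of the whole set thus lay close to that of other genes. Within it the TRAF adaptors had a region at 4 of 7 genes (57.1%, interval 18.4 to 90.1), the receptors at 7 of 21 (33.3%, interval 14.6 to 57.0) and the ligands at 2 of 12 (16.7%, interval 2.09 to 48.4). All 3 intervals include 31.8%, and they overlap each other, so an order of the 3 roles cannot be read from these counts. The intervals treat genes as independent, while 40 genes fall into 32 loci when those within 100 kb are joined. They cover only the counting of genes, not the measurement of H3K27ac.

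Some of the regions that were present lay high in the ranking, but the 13 linked genes are few and no interval was taken here. The strongest region of each linked gene had a median rank of 574 over the 13 genes, against 1181 over all 6083 linked protein-coding genes. For 4 of the 13 (30.8%) it was one of the 262 highest-ranked regions, against 11.7% of all linked genes. These 4 were TNFRSF13B, TNFRSF17, TRAF4 and TNFRSF13C, and 3 of them are the receptors for BAFF and APRIL. In all, 15 distinct regions were linked, since TNFRSF10B and TRAF1 had 2 each and the other 11 genes had 1. Their median signal was 28477 against 19736 over all regions, their median length 67.1 kb against 60.7 kb, and their median signal per bp 0.476 against 0.343.

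**Figure D1:**
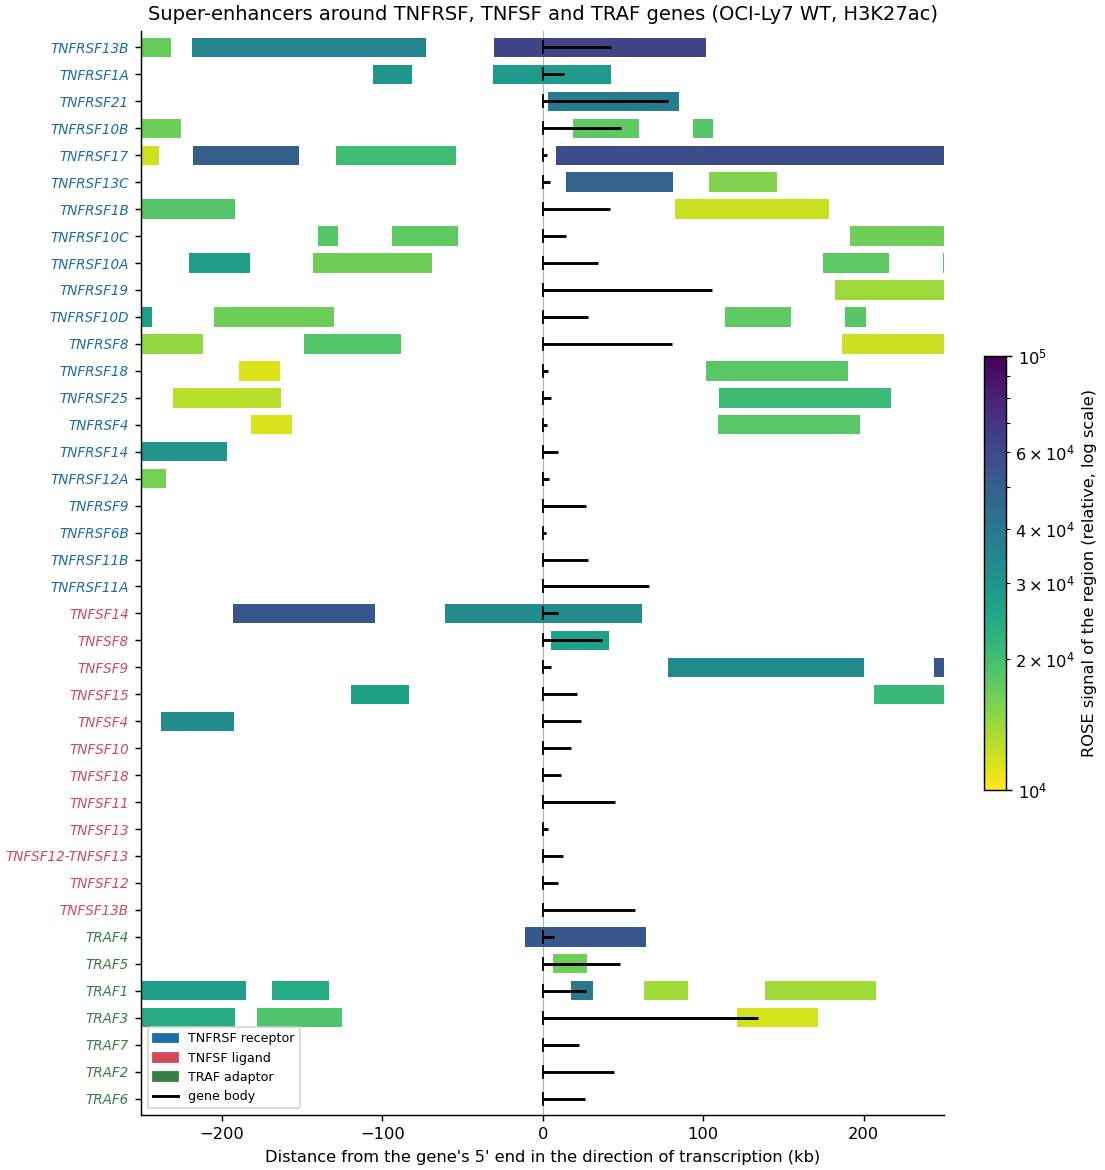
Super-enhancers within 250 kb of the 5′ end of each of the 40 genes, drawn by distance in kb in the direction of transcription. Each row is 1 gene, black lines are gene bodies, bars are super-enhancers coloured by ROSE signal on a log scale, and label colours give the role. The regions of TNFRSF13B, TNFRSF1A, TNFSF14 and TRAF4 cross the 5′ end of the gene, while those of TRAF1 and TRAF3 lie at its 3′ end.

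The body of the gene was overlapped by a region at 10 of 40 members (25%), against 17.9% of all genes. The annotated 5′ end of the gene lay inside a region at 4 of 40, against 8.11% of all genes. These 4 were TNFRSF13B, TRAF4, TNFSF14 and TNFRSF1A. The promoters of these 4 are given here because they are the ones that a stitched region spans. They were taken from RefSeq on hg38, for which 28 of the 40 genes were matched. The linked genes TNFRSF17, TNFRSF13C, TNFRSF10B and TNFSF8 were not matched, so their promoters were not searched for motifs. Of the 250 bases before the RefSeq start, bases within annotated exons were left out, and the longest remaining run is given 5′ to 3′ on the strand of the gene. These are chr17:16972119-16972368 (minus strand) for TNFRSF13B, chr17:28743761-28744010 (plus strand) for TRAF4, chr19:6670161-6670295 (minus strand) for TNFSF14 and chr12:6342115-6342326 (minus strand) for TNFRSF1A. Capitals mark GGAAG on either strand, the core recognised by ETS family factors, which include PU.1.
TNFRSF13B promoter: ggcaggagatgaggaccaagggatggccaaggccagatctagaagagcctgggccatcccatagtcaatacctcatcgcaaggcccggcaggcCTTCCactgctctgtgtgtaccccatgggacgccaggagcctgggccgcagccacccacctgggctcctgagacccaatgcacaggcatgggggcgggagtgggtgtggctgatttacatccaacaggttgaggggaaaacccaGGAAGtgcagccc
TRAF4 promoter: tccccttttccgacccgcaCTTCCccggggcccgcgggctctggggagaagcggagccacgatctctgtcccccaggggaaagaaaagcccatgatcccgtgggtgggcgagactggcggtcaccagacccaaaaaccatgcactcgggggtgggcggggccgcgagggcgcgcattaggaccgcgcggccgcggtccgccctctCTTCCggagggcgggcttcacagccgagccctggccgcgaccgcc
TNFSF14 promoter: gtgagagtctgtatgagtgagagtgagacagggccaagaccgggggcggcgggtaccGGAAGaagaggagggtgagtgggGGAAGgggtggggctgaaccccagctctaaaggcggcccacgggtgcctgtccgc
TNFRSF1A promoter: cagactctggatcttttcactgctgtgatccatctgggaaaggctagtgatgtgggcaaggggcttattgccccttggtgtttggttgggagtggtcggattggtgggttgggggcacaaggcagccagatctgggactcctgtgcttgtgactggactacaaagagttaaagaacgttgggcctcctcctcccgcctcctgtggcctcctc

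The GGAAG core was present in the 250 bases of 17 of the 28 matched promoters (60.7%), against 67.6% of 14616 matched promoters of all protein-coding genes. The printed stretch of TNFRSF1A holds none, and those of TNFRSF13B, TRAF4 and TNFSF14 hold 2 each. A kappaB consensus, the motif bound by NF-kappaB and searched on both strands, was present in 5 of the 28 (17.9%), against 5.77% of all. The 5 were TNFRSF9, TNFRSF14, TNFSF13, TNFSF14 and TRAF3. Of these, TNFSF14 and TRAF3 had a super-enhancer within 50 kb and the other three did not. The AP-1 motif TGANTCA was present in 3 of the 28 (10.7%), namely TNFRSF9, TNFSF14 and TNFSF15, against 4.86% of all. The RefSeq start lay 428 bp from the GENCODE 5′ end in TNFSF14, 732 bp in TNFRSF14, 2326 bp in TNFRSF9 and 13509 bp in TNFSF15. In TNFSF13 and TRAF3 it lay within 10 bp. A match is a description of the sequence only, and the motifs were chosen after the linked regions had been seen.

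The kappaB match nearest to the annotated 5′ end of each of the same 4 genes is printed next with 10 bases on each side, on the plus strand of hg38, with the match in capitals. The windows are chr17:16971843-16971872 in the TNFRSF13B region, chr17:28745567-28745596 in the TRAF4 region, chr19:6670332-6670361 in the TNFSF14 region and chr12:6341869-6341898 in the TNFRSF1A region.
TNFRSF13B region: atccagactcGGGGCTCTCCatgtgcagga
TRAF4 region: tccccctcccGGAAATCCCCtcttcctctc
TNFSF14 region: caagtgcagtGGGGAGCCCCcagctttccc
TNFRSF1A region: cggcagtgctGGGGCTTCCCgggactcggt

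Measured from the GENCODE 5′ end, the matches lay downstream by 0.256 kb in TNFRSF13B, 1.57 kb in TRAF4, 0.237 kb in TNFSF14 and 0.226 kb in TNFRSF1A. For TNFSF14 the RefSeq start lies 428 bp from the GENCODE 5′ end, so the same match is upstream of the RefSeq start. It is the one counted among the promoter matches, but it lies outside the stretch printed as the TNFSF14 promoter. Across whole regions, the 15 linked ones held a median of 1.82 kappaB matches per 10 kb, against 1.17 over all 2615. Pooled over all bases the rates were closer, at 1.55 and 1.35 per 10 kb. The TNFRSF1A region was highest among the 15, with 23 matches or 3.12 per 10 kb, which placed it 112th of 2615. The TRAF3 region followed with 2.97 per 10 kb. The strongest TRAF1 region held 0 matches in 13.7 kb and had 7 AP-1 matches. GC content also moved with this set, with a median of 47.9% in the linked regions and 45.7% in all regions, and its part in the motif counts was not tested.

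Among the receptors, the 3 that bind the B-cell survival cytokines BAFF and APRIL had the strongest regions. TNFRSF13B encodes TACI, which binds both cytokines and supports class switching and antibody responses. Its region, chr17:16870462-17002158, ranked 120 with a signal of 62727, 5.91 times the cutoff for calling a super-enhancer. It was 132 kb long with 28 constituent peaks and 0.476 signal per bp. It covered 100% of TNFRSF13B, which was the 1 protein-coding gene it overlapped, and 67.9% of its length was outside genes. MPRIP was the other gene within 50 kb.

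TNFRSF17 encodes BCMA, the receptor that sustains long-lived plasma cells. Its region, chr16:11973694-12241853, ranked 148 with a signal of 58512. It was the longest of the 15 at 268 kb and had 84 constituents, while its signal per bp, 0.218, was under the 0.343 median. It began 5.63 kb past the 3′ end of TNFRSF17 and ran over NPIPB2 and SNX29. Of its length, 98.6% was intronic, and none of it lay in TNFRSF17.

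TNFRSF13C encodes the BAFF receptor, on which mature B cells depend for survival. Its region, chr22:41845363-41912434, ranked 247 with a signal of 48358 over 67.1 kb, 17 constituents and 0.721 signal per bp, 2.10 times the median. It lay 9.60 kb past the 3′ end of TNFRSF13C, over SREBF2 and SHISA8, and 7 protein-coding genes lay within 50 kb of it. Of the 3 receptors, TNFRSF13B was therefore the 1 whose own body lay in its region, and distance alone ties the other two to theirs. Their ligands were far from any region: the nearest was 671 kb from TNFSF13, which encodes APRIL, and 2368 kb from TNFSF13B, which encodes BAFF. These receptors and ligands were set together after their ranks had been seen.

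TNFRSF21 encodes death receptor 6, a death-domain receptor with a part in B-cell and T-cell activation. Its region, chr6:47225255-47306442, ranked 413 with a signal of 38491 over 81.2 kb and 26 constituents. It covered 95.6% of the gene and no other protein-coding gene lay within 50 kb. The 5′ end of the gene lay 3.46 kb outside the region.

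TNFRSF1A encodes TNFR1, the widely expressed death-domain receptor for TNF. Its region, chr12:6299313-6373106, ranked 756 with a signal of 28477, 73.8 kb and 19 constituents, and also overlapped PLEKHG6 and SCNN1A. LTBR, the lymphotoxin beta receptor, lay within 50 kb of the same region and had a stronger one at rank 685. TNFRSF1B encodes TNFR2, which lacks a death domain. Its link was weak, since its region, chr1:12249686-12345528, ranked 2297 with a signal of 12153 and lay 40.5 kb away inside VPS13D. That region had 0.127 signal per bp and was 2608th of 2615 on this measure.

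TNFRSF10B encodes DR5, a receptor through which TRAIL starts apoptosis. It had 2 regions on chromosome 8. The first, chr8:22962802-22975580, ranked 1431 with a signal of 18348, was 12.8 kb long with 3 constituents and lay 44.6 kb away in an intron of PEBP4. The second, chr8:23009008-23050194, ranked 1506 with a signal of 17681 over 41.2 kb and 12 constituents, and covered 61.5% of TNFRSF10B as well as part of RHOBTB2. The other 3 TRAIL receptors of the cluster had no region within 50 kb. TNFRSF10C, a decoy receptor, was 52.7 kb from a region, just outside the limit, the death receptor TNFRSF10A 69.1 kb and the decoy TNFRSF10D 85.4 kb. For TNFRSF10C and TNFRSF10D that nearest region was the one over TNFRSF10B.

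The other 11 receptors were without a region within 50 kb. TNFRSF19 was 76.6 kb away, TNFRSF8 (CD30, a marker of activated lymphocytes) 88.2 kb, TNFRSF18 (GITR) 98.6 kb, TNFRSF25 (the receptor for TL1A) 104 kb and TNFRSF4 (OX40) 106 kb. Several of these are costimulatory receptors best known from T cells. TNFRSF14 encodes HVEM, a receptor often inactivated in germinal center lymphomas, and was 196 kb from a region. TNFRSF12A was at 235 kb, TNFRSF9 (CD137) at 381 kb, the soluble decoy TNFRSF6B at 474 kb, TNFRSF11B (osteoprotegerin) at 992 kb and TNFRSF11A (RANK) at 2406 kb. Thus 6 of 21 receptors had their nearest region between 50 and 100 kb, and 8 of 40 members did (20%), against 9.23% of all genes. The limit of 50 kb therefore decides the count for many receptors. At 100 kb, 13 of 21 receptors (61.9%) and 21 of 40 members (52.5%) were linked, against 41.1% of all genes. No interval was taken at 100 kb. The receptors gained include TNFRSF10A, TNFRSF10C and TNFRSF10D, which are neighbours in the same cluster and not independent.

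**Figure D2:**
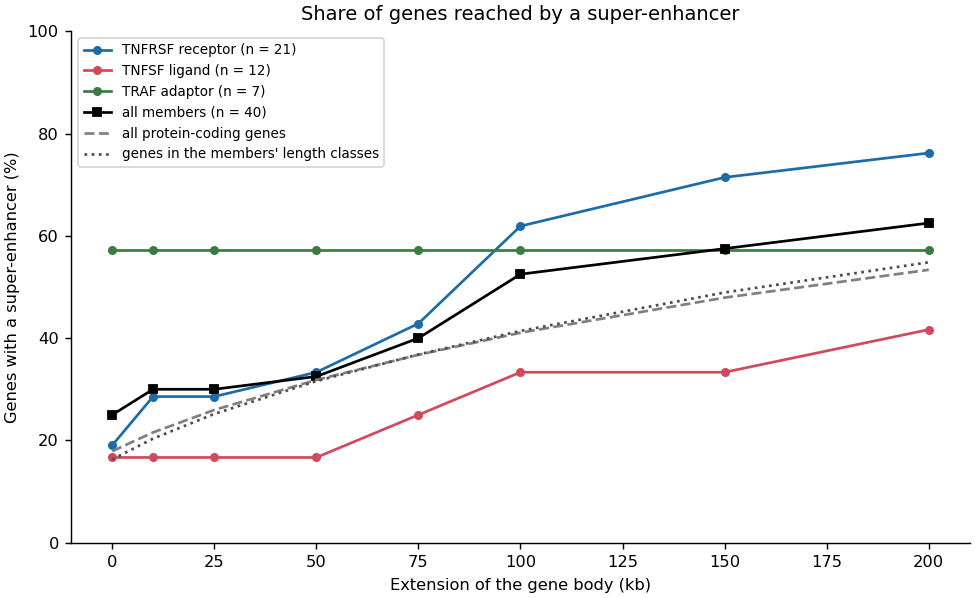
Share of genes with a super-enhancer, in percent, against the extension of the gene body in kb. Lines give the 21 receptors, 12 ligands, 7 adaptors, all 40 members, all protein-coding genes and genes in the members' length classes. The members and all genes meet at 50 kb (32.5% and 31.8%), and at 100 kb the receptors reach 61.9% while the adaptors stay at 57.1%.

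Among the ligands, TNFSF14 and TNFSF8 had a region. TNFSF14 encodes LIGHT, which binds HVEM and the lymphotoxin beta receptor. Its region, chr19:6608818-6731268, ranked 574 with a signal of 32792 over 122 kb and 30 constituents, and crossed the 5′ ends of TNFSF14 and of the complement gene C3. CD70, the ligand of CD27 and a costimulatory signal between B and T cells, lay 4.72 kb from this same region. TNFSF9, the ligand of CD137 on the same chromosome arm, was 72.9 kb from it and was not linked. In all, 7 protein-coding genes lay within 50 kb of this region: TNFSF14, CD70, C3, GPR108, TRIP10, SH2D3A and VAV1.

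TNFSF8 encodes the CD30 ligand. Its region, chr9:114889329-114925666, ranked 828 with a signal of 27006 over 36.3 kb and 11 constituents, at 0.743 signal per bp. It covered 86.8% of TNFSF8, with no other protein-coding gene within 50 kb, and its nearest edge was 4.93 kb from the annotated 5′ end. The neighbouring ligand TNFSF15, which encodes TL1A, was 83.3 kb from that region. TNFRSF8, the receptor for TNFSF8, was not linked at 88.2 kb, nor was TNFRSF14, a receptor for TNFSF14, at 196 kb.

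The other ligands were farther from a region. TNFSF4 (OX40 ligand) was at 192 kb, TNFSF10 (TRAIL) at 312 kb, TNFSF18 (GITR ligand) at 348 kb and TNFSF11 (RANK ligand) at 620 kb. TNFSF12 (TWEAK) was at 675 kb, and the TNFSF12-TNFSF13 readthrough gene, which shares its sequence with both neighbours, at 671 kb. The median distance to the nearest region was 330 kb over the 12 ligands, 85.4 kb over the 21 receptors and 168 kb over all protein-coding genes.

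Among the adaptors, TRAF4, TRAF1, TRAF5 and TRAF3 had a region overlapping the gene body, while TRAF7, TRAF2 and TRAF6 were 238, 360 and 1356 kb from one. No adaptor lay between, so the count of 4 of 7 held from the gene body alone up to 200 kb. Over the same windows the share of all genes rose from 17.9% to 53.4%. The adaptor count was 3 of 7 (42.9%, against 26.8% of all genes) with 50 kb on either side of the 5′ end. With only the 1307 regions of highest signal it was 2 of 7 (28.6%, against 17.5% of all genes). TRAF4, which acts in development, cell polarity and inflammatory signalling, had the strongest region of the group. This region, chr17:28732719-28808683, ranked 201 with a signal of 53699 over 76.0 kb, 17 constituents and 0.707 signal per bp. It covered the whole of TRAF4 and ran on into FAM222B and NEK8, and 9 protein-coding genes lay within 50 kb of it, the highest number among the 15 regions. TRAF4 itself made up 9.14% of its length.

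TRAF1 is an NF-kappaB target that is induced on B-cell activation and modulates TRAF2 signalling. Its strongest region, chr9:120897755-120911439, ranked 375 with a signal of 40194 in just 13.7 kb with 3 constituents. This gave 2.94 signal per bp, 8.57 times the median and 6th of 2615. The region lay at the 3′ end of the gene, with 66.1% of it inside TRAF1 and 17.7 kb between it and the 5′ end. The 5 regions with more signal per bp were 400 to 9186 bp long, and 41 to 93.5% of the 31-base words sampled in them had further copies in the genome. In the TRAF1 region 21% did, against a median of 13.5% over all regions. A second region, chr9:120838482-120865975, ranked 2000 with a signal of 13823 and lay 36.4 kb away over PSMD5 and PHF19.

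TRAF5, which takes part in CD40 and CD27 signalling, held its region wholly within the gene. This region, chr1:211332805-211354058, ranked 1624 with a signal of 16665 over 21.3 kb and 6 constituents, at 0.784 signal per bp. TRAF3 restrains the alternative NF-kappaB pathway by keeping its kinase at a low level, and it had the weakest of the 15 regions. This region, chr14:102898815-102949254, ranked 2388 with a signal of 11737, 1.11 times the cutoff, and covered the last 9.46% of the gene with AMN and part of CDC42BPB. TRAF6, which serves CD40, RANK and Toll-like receptors, was the adaptor farthest from any region, and TRAF2, which works with TRAF3 in one complex, had none within 50 kb either.

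**Figure D3:**
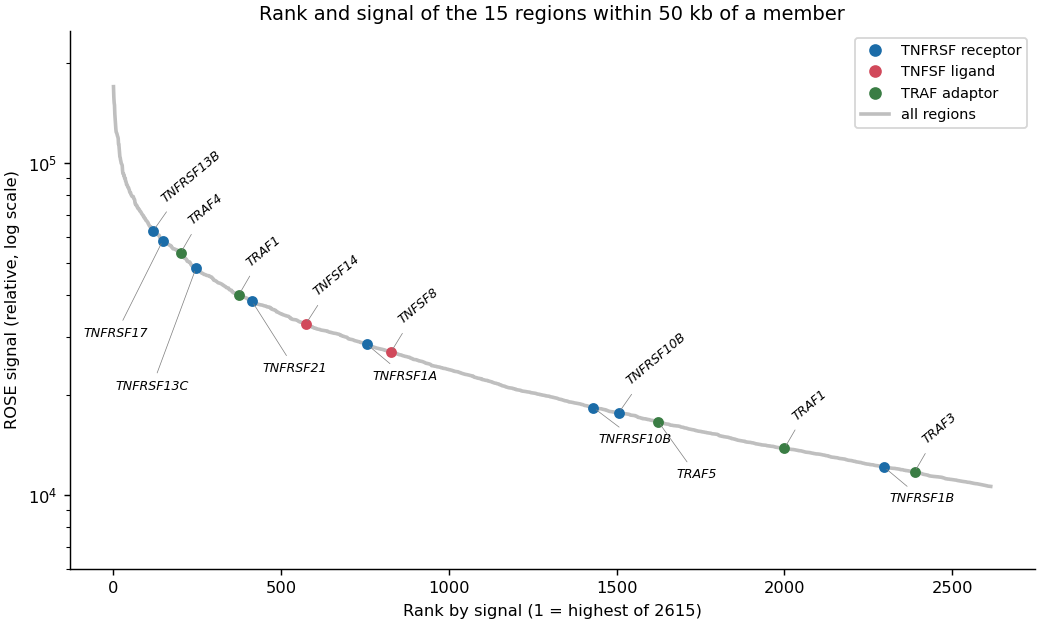
ROSE signal on a log scale against rank for the 2615 super-enhancers (grey line), with the 15 regions within 50 kb of a member marked by the gene's name and coloured by role. TNFRSF13B, TNFRSF17, TRAF4 and TNFRSF13C lie among the 262 highest, and TNFRSF1B and TRAF3 lie near the cutoff.

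The 15 regions ranged from 12.8 to 268 kb in length and from 3 to 84 in constituents. Their signal ranged 5.34-fold, from 11737 at TRAF3 to 62727 at TNFRSF13B, while signal per bp ranged from 0.127 at TNFRSF1B to 2.94 at TRAF1. The order of the regions thus depended on the measure. On signal per bp, 3 of the 15 were among the 262 highest, the strongest TRAF1 region, the more distant TNFRSF10B region and TRAF5, and the region of TNFRSF17 fell from rank 148 to 2158. Regions with fewer than 4 constituents were 2 of 15 (13.3%), namely those of TRAF1 and TNFRSF10B, against 1.99% of all regions.

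**Figure D4:**
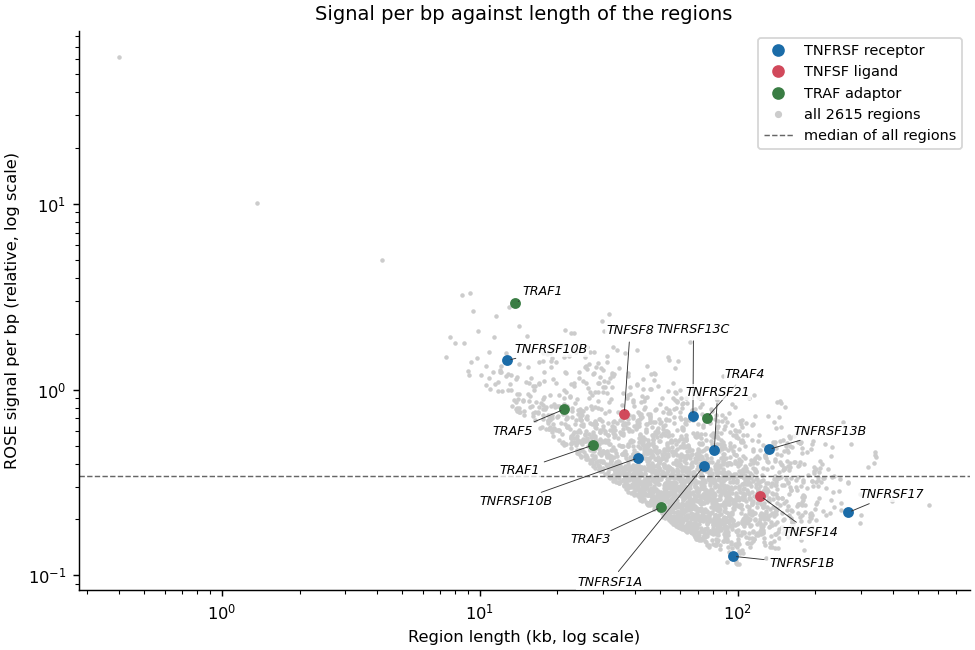
ROSE signal per bp against region length in kb, both on log scales, for all 2615 super-enhancers (grey) and the 15 linked regions, named and coloured by role. The strongest TRAF1 region stands at 2.94 signal per bp and 13.7 kb, and TNFRSF17 at 0.218 and 268 kb.

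The position of each region was also taken relative to the annotated 5′ end. Of 15 links, 4 had the annotated 5′ end inside the region, 11 had the region on the downstream side of it and 0 on the upstream side. Over all 7797 links of protein-coding genes, 19.9% had the 5′ end inside, 53.4% were downstream and 26.7% upstream. The distance was taken to the gene body, which itself lies downstream, for members and for all genes alike. The part of this rule in the shares was not tested. Peaks within 2500 bp of a transcription start were left out by ROSE before peaks were joined. The paper reports that starts of non-coding RNA were removed in this step, so the rule may not cover them. Positions of single peaks were not used here, so how a region came to span a 5′ end was not tested. When the 5′ end of any annotated transcript was used, 8 of 40 members had a start inside a region, against 14.8% of all genes.

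Superfamily members that carry other symbols were counted from a separate list. Of 7 such receptors 4 (57.1%) had a region within 50 kb, against 32.9% in their length classes: CD27 and LTBR at rank 685, RELT at rank 1596 and CD40, the main receptor for T-cell help in the germinal center, at rank 1807. FAS, EDAR and NGFR had none. Of 5 such ligands 4 (80%) had one, against 25.2% in their length classes: CD70 at rank 574, and LTA, TNF and LTB, which are neighbours and shared 1 region at rank 1787, while FASLG had none. With these 12 genes added to the 40, 21 of 52 (40.4%) had a region, against 31.8% of all protein-coding genes. The added genes are not independent, since CD27 and LTBR also shared 1 region and the region of CD70 was that of TNFSF14.

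A list of 17 further genes was drawn up for signalling next to the receptors, with adaptors, caspases and kinases among them. Not every gene in it is known to act there. Of the 17, 12 (70.6%) had a region, against 34.6% in their length classes. The strongest was at TAB2, a subunit of the TAK1 kinase complex, at rank 367, and the weakest at TRAF3IP1 at rank 2366. BIRC2 and BIRC3, the ubiquitin ligases that bind TRAF2, shared 1 region at rank 407, as CASP8 and CFLAR did at rank 755. TRAF3IP3, TANK, MAP3K7, FADD and MAP3K14 had none. Of 5 feedback inhibitors of NF-kappaB signalling 2 (40%) had a region, against 34.2% in their length classes. These were TNIP2 at rank 104 and TNIP1 at rank 170, while OTULIN, TNFAIP3 and CYLD had none, with TNFAIP3 at 61.8 kb.

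The label of the line was checked against marker genes. Of 9 B-cell and germinal center B-cell markers 8 (88.9%) had a region within 50 kb, against 29.3% in their length classes, from BACH2 at rank 66 to CD79B at rank 2257, and CD22 had none. Of 8 T-cell markers 2 (25%, against 31.5%) had one, CD28 at rank 301 and TCF7 at rank 2308. Of 5 liver and stroma markers 0 did, against 34.4% in their length classes. The lists hold few genes, and a super-enhancer near a gene is not a measure of its expression.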

How the data were processed

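The authors aligned CUT&RUN reads to hg38 with nf-core cutandrun, used genotype-matched IgG controls and promoter reads for scaling, and took peaks from SEACR and their summits from MACS2. ROSE was run on WT H3K27ac and joined peaks within 12500 bp. The submitters' processing notes also name DiffBind 3.6.1 and DESeq2, which were not used here. The deposited signal is the ROSE signal of each region in 1 column of 2 pooled libraries. Its unit was not stated in the header, all 2615 rows exceeded the cutoff of 10617, and no reads per library were given, so the depth behind a value is unknown and values are relative.

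Genes came from GENCODE version 44, the 10 length classes held all protein-coding genes of chromosomes 1 to 22, and intervals were exact binomial at 95%. The counting was checked on simulated data. Repeats were read at 200 positions per region as exact 31-base words in hg38. Every member was accounted for, and of the other lists the counts and the strongest and weakest regions were named, with further members added after their values were seen. One B-cell marker is not reported here, and its list is counted without it. The members and lists were chosen with earlier results of these data known. Python 3.11.15 was used with matplotlib 3.10.9, numba 0.67.0, scipy 1.17.1, pandas 2.3.3 and numpy 2.4.6. Alternatives changed the window, the regions, the members and the length classes. The planned comparison of C, K and CK with WT needed values per sample and was not run.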

Additional observations from a re-analysis of the deposited data

How the results depend on the processing

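Of 34 alternatives to 7 results, 27 were counted as unchanged and 7 as moved. A share was unchanged if it lay within the interval of the main value or within 1.5 times of it. The alternatives to the median rank of 574 were counted as moved, although 744 and 756 lie within 1.5 times of it. With the gene body extended by 100 kb the share with a super-enhancer was 52.5% of members and 61.9% of receptors, and by 200 kb it was 62.5% and 76.2%, because wider windows take in regions farther away. All protein-coding genes rose too, to 41.1% and 53.4%, and no interval was taken for these wider windows. The median rank of the strongest region was 744 by signal per bp (1223 over all linked genes). With each of the 15 linked regions counted once, weaker second regions included, the median rank was 756, against 1308 over all regions. By the 5′ end of any annotated transcript, 8 members had a start inside a region in place of 4. Matching on gene length and gene number together, an alternative chosen after seeing the data, gave 30.5%. No paired analysis was possible because the 2 libraries were pooled in 1 column, and for the same reason leaving out a library and the replicate block were not run. There were 119 regions within 5% above the cutoff, none of them linked to a member.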
